A study of Mus musculus with 2 samples.

Results

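The genes that move and separate chromosomes at cell division were examined as 1 module in progenitors of innate lymphoid cells (ILCs) labelled as Yeats4-deficient and in wild-type progenitors. A gene belonged to the module if its annotation symbol was that of a numbered kinesin (Kif), a CENP protein, an Aurora kinase, cyclin B1 or B2, or Spc24 or Spc25, or stood on a list of 16 further mitotic genes that runs from Ndc80 to Mki67. This rule, which used no measured value, found 76 genes among the 19505 genes with a symbol, each with 1 probe set. It takes in all kinesins with a numbered Kif symbol, but not Kifc1. Thus 24 of the 76 were kinesins outside the list of 11 mitotic kinesins, mostly transport motors. These are described apart as the other kinesins. One of the 24, Kif4-ps, is a pseudogene of Kif4, and its probe set may share sequence with the gene.

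Each genotype was measured on 1 Affymetrix array. One array is labelled as RNA of progenitors of Yeats4 knockout mice, and the other as that of their wild-type littermates. The labels name a Mouse Gene2.0 array, whereas the probe set identifiers are those of another Affymetrix mouse design, and all gene names rest on the annotation of that design. Both populations were sorted as lineage-negative, CD127-positive, α4β7-positive cells with intermediate c-Kit and Sca-1. The allele, the driver of the deletion, the age and sex of the mice and the number of mice behind an array are not stated in the labels. Values are on a log2 scale, and each difference is knockout minus wild type. Since n = 1 per genotype, replicate error could not be estimated and nothing was tested, so no difference below has been shown to exceed the variation between mice. As a description only, a difference is set beside the local spread, which is the scaled median absolute deviation among 500 genes of similar mean level (its level neighbours). The spread is taken around the median of those neighbours, which is mostly above 0. A difference larger than its spread can thus lie under 1 spread from that median. For many of the genes named, the number of neighbours that lay higher or lower is therefore given too.

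Yeats4 itself read 5.90 on the array labelled knockout and 5.96 on the wild-type array, that is -0.06, with a local spread of 0.34. Whether its probes lie in the deleted part is not known here, so this value does not check the label. Of the genes of the sort gate, Kit stood at 7.77 and 7.12, Il7r at 6.38 and 7.07, Itga4 at 7.38 and 7.38 and Itgb7 at 6.32 and 6.46 on the array labelled knockout and the wild-type array. All 4 lay above the level of the negative control probe sets, defined as their 95th percentile, which was 4.73 on the array labelled knockout and 4.80 on the wild-type array. Values under it are called near background. Ly6a, the gene of Sca-1, was not analysed here. Factors of early ILC progenitors differed more than most genes of their level. Id2, an inhibitor of E proteins, read 9.11 on the array labelled knockout and 7.88 on the wild-type array (1.23), and 0 of 500 neighbours lay higher. Nfil3, which acts upstream of Id2 in these cells, read 8.49 and 9.43 on those arrays (-0.93), with 3 of 500 lower, and Tox read 5.90 and 6.48 (-0.58), also with 3 lower. Zbtb16, the gene of PLZF, read 4.68 and 5.04 (-0.35, local spread 0.41), with 74 of 500 lower, and was near background on the array labelled knockout. Of these 8 genes 3 lay over 3 local spreads from the median of their neighbours, so the arrays differed in the progenitor's own markers, and the part of this in the mitotic differences was not tested. A gene passed the level filter when its mean over the arrays reached 2.88, the median over all probe sets, which 10881 genes did. Of the 76 members 64 passed, and 11 of the 12 that did not were other kinesins, while the remaining one was Plk4.

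As background, a dividing cell attaches each chromosome to spindle microtubules through its kinetochore, a protein assembly built on centromeric chromatin marked by the histone variant CENP-A. The NDC80 complex binds the microtubules, mitotic kinesins slide, crosslink or depolymerise them, and the spindle checkpoint holds back CDC20, the activator of the anaphase-promoting complex (APC/C), until all chromosomes are attached. Transcription of many of these genes peaks in G2 and mitosis through a promoter element called the cell cycle genes homology region (CHR), bound by the MuvB core of the DREAM complex, often with nearby CCAAT boxes bound by NF-Y. In a sorted population their RNA level therefore follows the share of cells in G2 and mitosis as well as the amount per cell, and bulk arrays cannot tell more cells of a state from more RNA per cell.

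Because these promoters share elements, the sequence around the start of the member with the highest and the lowest difference past the level filter is shown for 4 groups of members. Those are the other spindle and chromosome genes (Hmmr and Top2a), the checkpoint genes (Ttk and Bub1b), the mitotic kinesins (Kif20b and Kif18a) and the other kinesins (Kif13a and Kif24). The sequences are from RefSeq on GRCm38.p6 and run 5′ to 3′ on the strand of the gene, from 170 bases before the transcription start to 30 bases after it. Capitals mark the CHR letters TTTGAA on either strand. They also mark a variant of the CHR, spelled TTCGAA, which is its own reverse complement. The NF-Y box is marked where the letters CCAAT stand on either strand. The E2F-type site was searched as GCGGGAA on either strand, and none lies in the windows shown. No searched motif contains another.
Hmmr: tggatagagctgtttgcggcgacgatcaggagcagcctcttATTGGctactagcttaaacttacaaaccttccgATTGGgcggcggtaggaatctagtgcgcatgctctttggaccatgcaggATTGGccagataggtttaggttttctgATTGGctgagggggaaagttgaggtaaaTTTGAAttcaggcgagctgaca
Top2a: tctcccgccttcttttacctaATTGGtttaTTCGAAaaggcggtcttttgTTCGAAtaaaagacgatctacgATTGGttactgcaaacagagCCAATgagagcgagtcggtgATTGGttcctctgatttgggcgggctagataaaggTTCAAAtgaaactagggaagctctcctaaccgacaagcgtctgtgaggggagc
Ttk: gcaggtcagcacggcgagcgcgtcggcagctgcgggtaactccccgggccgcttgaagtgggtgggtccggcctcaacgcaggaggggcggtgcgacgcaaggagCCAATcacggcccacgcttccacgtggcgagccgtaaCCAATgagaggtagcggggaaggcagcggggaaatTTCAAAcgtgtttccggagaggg
Bub1b: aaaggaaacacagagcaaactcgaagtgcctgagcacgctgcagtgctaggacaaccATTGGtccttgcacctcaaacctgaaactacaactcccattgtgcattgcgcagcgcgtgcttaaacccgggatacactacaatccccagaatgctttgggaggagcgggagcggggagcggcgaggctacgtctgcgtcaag
Kif20b: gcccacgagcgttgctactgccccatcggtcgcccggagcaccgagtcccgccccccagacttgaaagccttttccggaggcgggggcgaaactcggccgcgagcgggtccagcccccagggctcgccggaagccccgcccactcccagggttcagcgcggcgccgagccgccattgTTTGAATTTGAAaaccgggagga
Kif18a: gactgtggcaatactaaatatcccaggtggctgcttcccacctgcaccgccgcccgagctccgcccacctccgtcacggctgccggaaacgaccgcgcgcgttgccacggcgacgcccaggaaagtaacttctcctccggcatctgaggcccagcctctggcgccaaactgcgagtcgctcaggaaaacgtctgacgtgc
Kif13a: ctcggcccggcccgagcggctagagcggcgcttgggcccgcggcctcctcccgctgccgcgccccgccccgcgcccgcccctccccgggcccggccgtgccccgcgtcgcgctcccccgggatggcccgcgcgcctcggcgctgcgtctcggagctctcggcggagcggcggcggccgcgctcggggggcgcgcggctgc
Kif24: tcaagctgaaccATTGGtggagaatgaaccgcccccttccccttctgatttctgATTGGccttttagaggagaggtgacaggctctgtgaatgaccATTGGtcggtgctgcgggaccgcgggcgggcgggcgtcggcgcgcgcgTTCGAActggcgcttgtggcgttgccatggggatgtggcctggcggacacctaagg
They lie at chr11:40733408-40733607 (- strand) for Hmmr, chr11:99024160-99024359 (- strand) for Top2a, chr9:83834519-83834718 (+ strand) for Ttk and chr2:118598041-118598240 (+ strand) for Bub1b. The kinesin windows lie at chr19:34922188-34922387 (+ strand) for Kif20b, chr2:109280568-109280767 (+ strand) for Kif18a, chr13:46929689-46929888 (- strand) for Kif13a and chr4:41464819-41465018 (- strand) for Kif24.

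The window of Hmmr held 4 CCAAT boxes in the reverse orientation, at positions -129, -96, -47 and -20, and CHR letters at 9, counted from the first transcribed base. Ttk had CCAAT boxes at -65 and -28 and CHR letters at 8. Kif20b had CHR letters in tandem, at 8 and 14, and no CCAAT box. Top2a, whose difference was small, held the densest set, with CHR letters at -140, -120 and -23 and 4 CCAAT boxes. Bub1b showed a single CCAAT box at -113. Kif18a and Kif13a showed none of these letters, and Kif24 had 3 CCAAT boxes and CHR letters at -26. A match is a run of letters and not a shown binding site, and the absence of a match covers these letters in this window only.

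RefSeq promoter windows of 300 bases (250 before and 50 after the start) were found for 66 of the 76 members, 74 windows in all. CHR letters of either kind stood in 30 of the 52 windows of members outside the other kinesins (57.7%), in 3 of the 22 windows of the other kinesins (13.6%) and in 19.2% of all 32851 promoter windows. The letters TTTGAA alone were in 17.9% of all windows and TTCGAA in 1.56%. CCAAT boxes stood in 37 of the 52 windows (71.2%), in 8 of the 22 (36.4%) and in 37.4% of all windows. Both kinds together were in 26 of the 52, against 7.11% of the 21262 windows of protein-coding genes. Mitotic kinesins held CHR letters most often among the role groups, in 9 of 10 windows, and the CENP genes of the centromere least often outside the other kinesins, in 5 of 20. The E2F-type letters showed the reverse, with 7 of 20 windows of the CENP genes and none of the 10 windows of mitotic kinesins, against 4.60% of all windows. CHR letters that began within 30 bases of the start, a distance chosen after the matches were seen, were in 20 of the 52 windows (38.5%) and in 3.40% of all windows. Members of a role group were chosen by function, so these shares describe the module and were not tested.

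**Figure D1:**
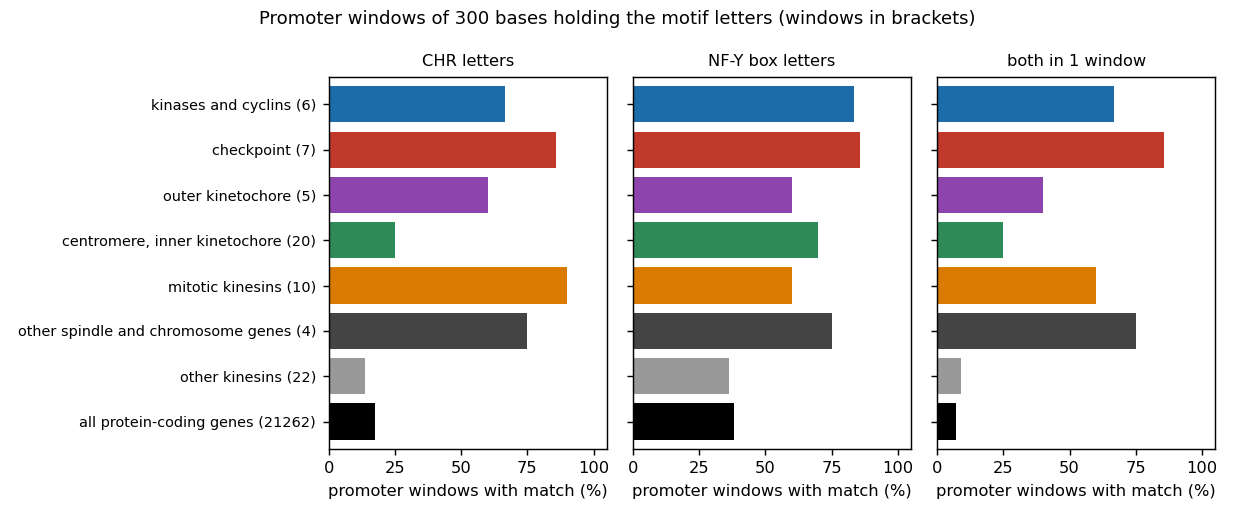
Share of promoter windows (percent, x axes) that hold CHR letters, CCAAT (NF-Y box) letters or both, for each role group of members and for all protein-coding genes; the number of windows is in brackets. The mitotic kinesins reach 90.0% for CHR letters, the other kinesins 13.6% and all protein-coding genes 17.6%.

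Over the 64 members past the level filter the median difference was 0.21 on the log2 scale, against 0.08 over all 10881 genes past it. As measured 51 members read higher on the array labelled knockout and 12 lower, where 58.2% of all genes past the filter read higher, and Kif3c read the same on both. Over all 76 members without a filter, 58 read higher and 17 lower, with a median of 0.19. Members outside the other kinesins that passed the filter numbered 51, with a median of 0.29 and 45 of them higher, while the 13 other kinesins had a median of 0.00 with 6 higher and 6 lower. The count of higher members was 47 after centring on the median of all genes, 46 after a loess correction on level and 48 after quantile normalization, out of 64 each time.

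Large differences were few. At least 2-fold higher were 3 of the 64 members, namely Hmmr, Kif13a and Cenpp, against 1.56% of all genes past the filter. No member was 2-fold lower, against 0.781% of all genes. At 1.5-fold, 10 members were higher and 1 was lower, against 9.16% and 5.16% of all genes. All 3 members past 2-fold had wild-type values near background, and none of the 64 differed from the median of its level neighbours by 3 local spreads, as 104 genes in all did. Most differences in the module were therefore small.

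**Figure D2:**
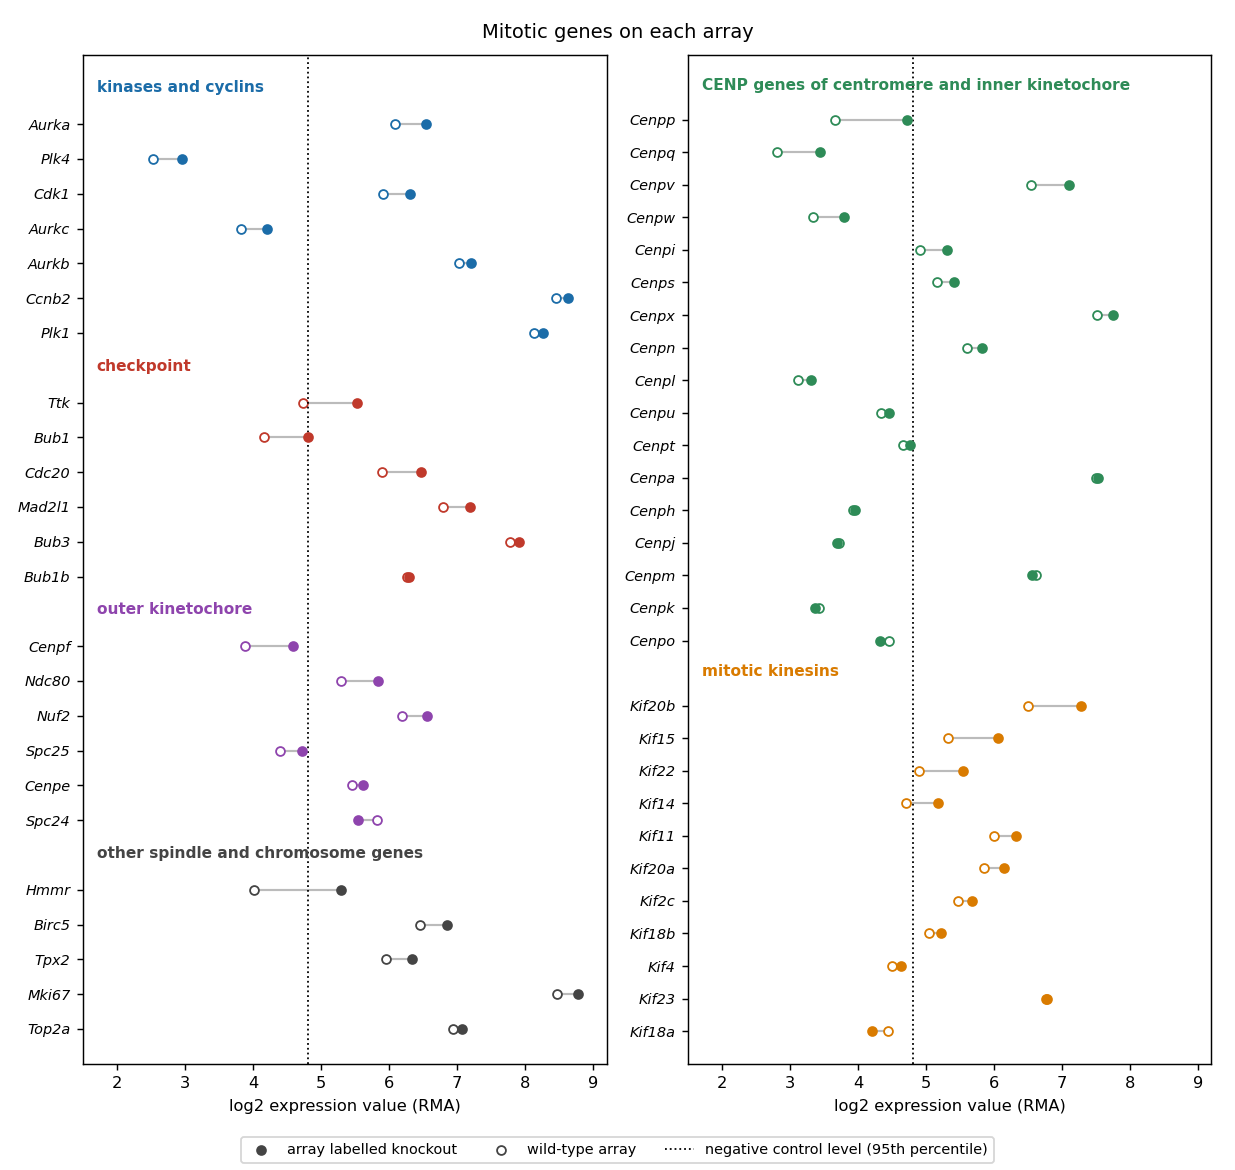
Log2 expression value (x axis) of each member outside the other kinesins on the array labelled knockout (filled) and the wild-type array (open), by role group and in the order of the difference; the dotted line is the negative control level of the wild-type array, 4.80. Most filled points lie right of the open ones, and Spc24, Kif18a, Cenpo, Cenpk, Cenpm and Cenpj lie the other way.

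Mitotic kinases and cyclins read higher in all 6 members past the filter, by a median of 0.28 and within a narrow range of 0.13 to 0.45. Of the 8 genes named for this group 7 were found, and Ccnb1, the gene of cyclin B1, was not. Aurka, the Aurora kinase of centrosomes and spindle poles, read 6.54 on the array labelled knockout and 6.09 on the wild-type array (0.45, local spread 0.29). Cdk1, the kinase that drives entry into mitosis, read 6.32 on the array labelled knockout and 5.91 on the wild-type array (0.40, spread 0.33), which is 1.32-fold. Among the 500 nearest genes 82 lay above Aurka and 101 above Cdk1, and both were under 1 local spread from the median of those genes. Ccnb2, a B-type cyclin that activates Cdk1, read 8.64 on the array labelled knockout and 8.46 on the wild-type array. Plk1, a kinase of spindle assembly and mitotic exit, read 8.26 and 8.13 on those arrays. Aurkb, the kinase of the chromosomal passenger complex, read 7.21 and 7.03 on the same arrays. For these 3 the differences of 0.18, 0.13 and 0.18 lay within the local spread and close to the median of their level neighbours, and that of Plk1 turned negative after the loess correction. Aurkc, known mainly from meiosis, was near background on both arrays (4.21 on the array labelled knockout and 3.83 on the wild-type array). Plk4, the kinase of centriole duplication, was near background too and under the level filter, at 2.95 and 2.53.

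The 6 checkpoint genes all read higher as deposited and had the highest group median, 0.47, but they split into 4 with differences of 0.38 or more and 2 near 0. That rank did not hold over members above background on both arrays. There the checkpoint median was 0.25 over 4 genes, against 0.31 for the mitotic kinesins and 0.35 for the other spindle and chromosome genes. Ttk, the kinase (MPS1) that starts checkpoint signalling at unattached kinetochores, read 5.53 on the array labelled knockout and 4.74 on the wild-type array, where it was near background. It was at least 1.65-fold higher (0.79 as measured, spread 0.34), and 18 of its 500 level neighbours lay above it. Bub1, a kinase that recruits checkpoint proteins to kinetochores, read 4.80 on the array labelled knockout and 4.16 on the wild-type array (0.64, spread 0.40). Both readings of Bub1 lie near the negative control level, so no fold is given. Cdc20, the APC/C activator that the checkpoint restrains, read 6.46 on the array labelled knockout and 5.90 on the wild-type array, which is 1.47-fold higher (0.56, spread 0.31). Mad2l1, which encodes MAD2 and binds CDC20, read 7.18 and 6.80 on those arrays (0.38, spread 0.25). Of their 500 level neighbours 41 lay above Cdc20 and 81 above Mad2l1. The partners of these proteins in the mitotic checkpoint complex differed little. Bub3 read 7.91 on the array labelled knockout and 7.79 on the wild-type array, and Bub1b, which encodes BUBR1, read 6.30 and 6.27. Their differences of 0.12 and 0.03 were under their local spreads of 0.22 and 0.30, and both turned negative after the loess correction.

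In the outer kinetochore 3 subunits of the NDC80 complex read higher and Spc24 lower, with no test of a difference between them. The subunit Ndc80, which holds the microtubule, read 5.83 on the array labelled knockout and 5.29 on the wild-type array (0.54, spread 0.35). Its dimer partner Nuf2 read 6.56 and 6.20 (0.36, spread 0.30). Of their 500 level neighbours 56 lay above Ndc80 and 127 above Nuf2. Spc25, of the dimer that faces the chromosome, read 4.71 and 4.39 on those arrays and was near background on both. Its partner Spc24 read 5.54 on the array labelled knockout and 5.82 on the wild-type array, 1.21-fold lower (-0.28, spread 0.34), and it was the sole outer kinetochore gene below 0. Of its 500 level neighbours 63 lay lower. Cenpf, a large coiled-coil protein of the kinetochore and a widely used G2 marker, read 4.58 on the array labelled knockout and 3.88 on the wild-type array (0.70, spread 0.49), both near background. Cenpe, which is a kinesin motor of chromosome congression, read 5.62 and 5.46, a difference of 0.16 within its spread of 0.36.

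The 17 CENP genes grouped with the centromere and inner kinetochore had a median of 0.19, and 9 of them lay near background throughout. As measured 13 read higher and 4 lower. Cenpa, the centromeric histone H3 variant, read 7.53 on the array labelled knockout and 7.50 on the wild-type array (0.04, spread 0.24), and its sign turned after centring, loess and quantile normalization. The highest above background was Cenpv, which has roles in centromere organisation, at 7.11 and 6.55 on the array labelled knockout and the wild-type array, 1.47-fold higher (0.56, spread 0.28). Cenpi, of the CENP-H, -I, -K and -M complex, read 5.32 and 4.92 (0.40, spread 0.34), while its partner Cenpm read 6.56 and 6.62 (-0.06, spread 0.29). The other partners Cenph, at 0.03, and Cenpk, at -0.07, were near background on both arrays. The histone-fold pair Cenps and Cenpx, which also serves DNA repair, had differences of 0.25 each after rounding, at 5.41 and 7.76 on the array labelled knockout and 5.16 and 7.51 on the wild-type array. The subunits of the CENP-O, -P, -Q and -U complex were all near background. Among them Cenpp read 4.72 and 3.66 (1.06, spread 0.47), Cenpq 3.44 and 2.81 (0.63, spread 0.46), Cenpu 4.46 and 4.33 and Cenpo 4.32 and 4.46 on the array labelled knockout and the wild-type array. At these levels the direction of a single gene is not informative. Cenpj, a centriole protein in spite of its name, read 3.69 and 3.71.

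Of the 11 mitotic kinesins 10 read higher, with a median of 0.29, and Kif23, at 0.02, turned negative after centring, loess and quantile normalization. Kif20b, a motor of cytokinesis, read 7.28 on the array labelled knockout and 6.50 on the wild-type array, 1.72-fold higher (0.78, spread 0.27). Among its 500 level neighbours 6 lay higher, and it had the largest difference among members above background on both arrays. Kif15, which helps keep the spindle bipolar, read 6.06 and 5.33 on those arrays, 1.66-fold higher (0.73, spread 0.35), with 10 neighbours higher. Kif22, a chromokinesin that binds chromosome arms, read 5.54 and 4.90, 1.57-fold higher (0.65, spread 0.34). These 3 were the members above background on both arrays that passed 1.5-fold.

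Kif14, of the midzone, read 5.18 on the array labelled knockout and 4.71 on the wild-type array, at least 1.30-fold higher (0.48, spread 0.40). Kif11, the main bipolarity motor, read 6.33 on the array labelled knockout and was 0.33 higher there than on the wild-type array (spread 0.31). Kif20a, which brings the passenger complex to the midzone, read 6.14 and 5.85 on the same arrays (0.29, spread 0.36). Among their 500 level neighbours 84 lay above Kif14, 144 above Kif11 and 162 above Kif20a. The depolymerase Kif2c read 5.67 on the array labelled knockout and 5.47 on the wild-type array. Kif18b, which acts on astral microtubules, read 5.22 and 5.05. Their differences of 0.20 and 0.17 lay within the spread. Kif23, a subunit of centralspindlin, read 6.78 on the array labelled knockout and 6.76 on the wild-type array. Kif4, a chromokinesin, and Kif18a, which damps chromosome oscillation, were near background on both arrays, at 4.64 and 4.50 and at 4.20 and 4.44. Kif18a (-0.24) was the lone mitotic kinesin below 0.

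The other 5 members with roles at the spindle or on mitotic chromosomes all read higher, with a median of 0.38. Hmmr, a spindle protein that works with TPX2 and was named as a hyaluronan receptor, read 5.29 on the array labelled knockout and 4.01 on the wild-type array. It was at least 1.40-fold higher (1.28 as measured, spread 0.44), and 5 of its 500 neighbours lay above it. Tpx2, which targets Aurora A to the spindle, read 6.34 and 5.96 (0.38, spread 0.31). Birc5, which encodes survivin of the passenger complex, read 6.86 and 6.45 (0.41, spread 0.29). Both were above background on each array, and 107 of 500 neighbours lay above Tpx2 and 99 above Birc5. Mki67, the gene of the proliferation antigen Ki-67, read 8.77 on the array labelled knockout and 8.47 on the wild-type array, 1.24-fold higher (0.31, spread 0.18). Of its 500 level neighbours 102 lay higher. Top2a, the topoisomerase that disentangles sister chromatids, read 7.07 and 6.94, and its difference of 0.13 lay within the spread of 0.27 and turned negative after loess and quantile normalization.

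**Figure D3:**
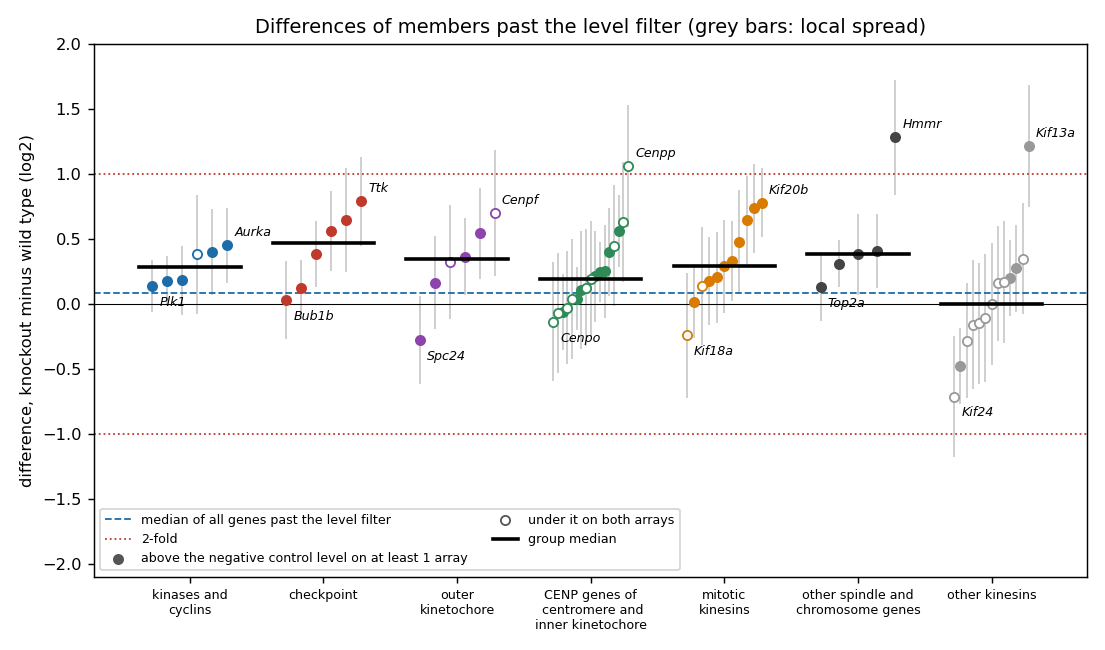
Difference between the arrays (log2, y axis) for the 64 members past the level filter by role group, with grey bars for the local spread and black bars for the group median. The checkpoint genes have the highest median, 0.47 (0.25 over those above background on both arrays), and the other kinesins the lowest, 0.00. The dashed line is the median of all genes, 0.08.

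The 24 other kinesins gave no common direction, with 12 higher and 11 lower as measured and 20 near background on both arrays. Kif13a, a motor of endosomal transport, read 4.78 on the array labelled knockout and 3.57 on the wild-type array (1.22, spread 0.47). Its higher reading stood under the larger of the control levels, so no fold is given. Kif24, a centriolar kinesin that restrains cilia, read 3.98 and 4.69 on those arrays (-0.71, spread 0.46), both near background. The 3 other kinesins above background on both arrays went different ways. Kif21b, a motor known from neurons and lymphocytes, read 5.98 on the array labelled knockout and 6.45 on the wild-type array, 1.39-fold lower (-0.48, spread 0.29), with 12 of 500 neighbours lower. The conventional kinesin heavy chain Kif5b read 6.66 and 6.46 (0.20), at the median of its neighbours. Kif2a, a depolymerase with a role at spindle poles as well as in neurons, read 6.24 and 5.96 (0.27, spread 0.33). Of the remaining kinesins past the filter, all near background, Kif3a (0.35), Kif19a (0.17) and Kif13b (0.16) lay above 0, and Kif1b (-0.28), Kif3b (-0.16), Kif16b (-0.15) and Kif26a (-0.11) below it.

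The direction was also seen among brighter members. The module had 35 members above the negative control level on both arrays, of which 32 read higher, with a median of 0.25, where 65.7% of the 5283 genes above it on both arrays read higher, with a median of 0.13. Spc24, Cenpm and Kif21b were the 3 that read lower. Outside the other kinesins 30 of 32 such members read higher, with a median of 0.27. Their level neighbours also read higher on balance, since the differences of all genes depended on level. Set against the median of its 500 neighbours, 47 of the 64 members lay above and 17 below, where 49.8% of all genes lay above.

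**Figure D4:**
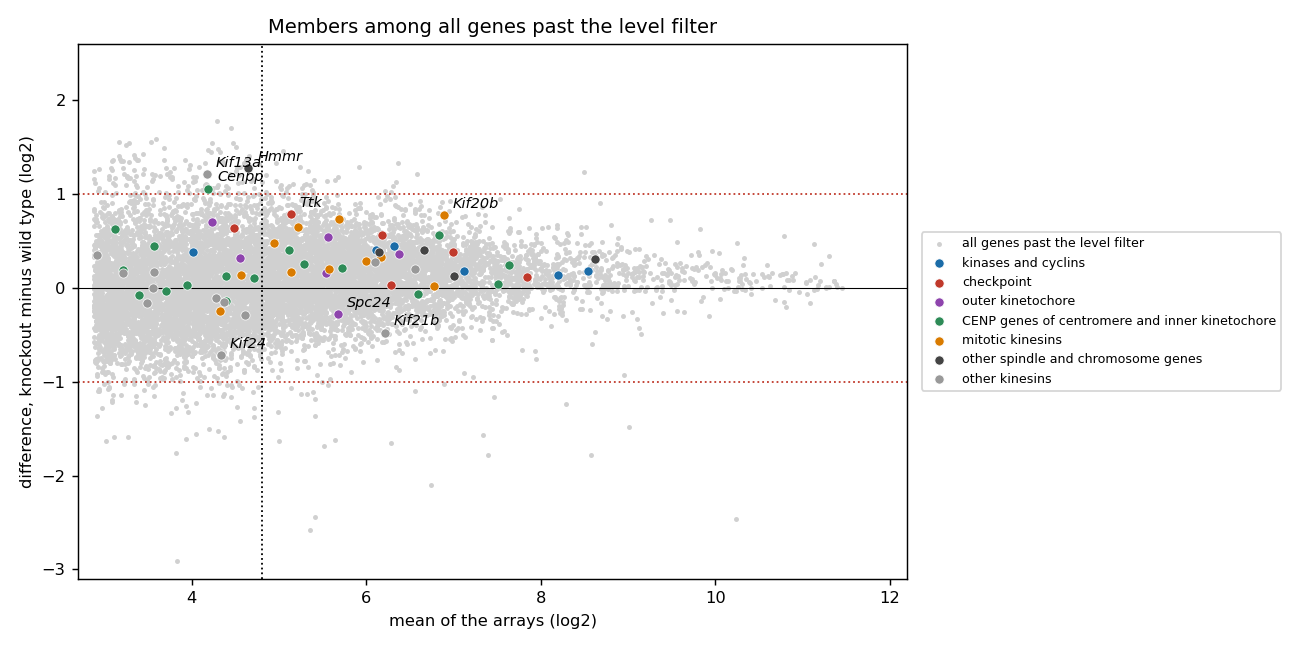
Difference (log2, y axis) against mean of the arrays (log2, x axis) for all 10881 genes past the level filter (grey) and for the members by role group; the dotted lines mark 2-fold and the negative control level, 4.80. The 3 members past 2-fold, Hmmr, Kif13a and Cenpp, lie left of that level, where the scatter of all genes is widest.

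Differences were also set beside the promoter letters. Outside the other kinesins, 47 members past the filter had a promoter window. The 20 of them with CHR letters within 30 bases of the start all read higher as deposited, with a median of 0.42 and a range of 0.02 to 1.28. However, Kif23, Cenpa and Top2a among them turned negative under other scalings. Cenpw, Kif4, Cenpf and Spc25 were near background on both arrays. Ttk, Bub1 and Hmmr, which had the 1.28, were near background on the wild-type array. Of the 27 members without such letters 22 read higher, with a median of 0.20. That distance was chosen after the matches were seen, and the other splits of these members differed less or the other way. With CHR letters anywhere in a window 28 of 29 read higher (median 0.32), and without them 14 of 18 (0.25). With CHR and CCAAT letters in 1 window the median was 0.31, the same as without. With CCAAT letters it was 0.25, against 0.37 without. Among genes that are no member, the 253 with CHR letters there had a median of 0.13 with 64.0% higher, and the 8559 without had 0.08 with 58.4% higher. The 7 members with E2F-type letters had a median of 0.03 and the other 40 a median of 0.37, whereas in genes that are no member those letters went with 0.13, against 0.08 without. The split by CHR letters near the start follows the role groups in part. All 7 members with E2F-type letters are CENP genes of the centromere and inner kinetochore. That split thus sets part of 1 role group against all other members. Of the 7, Cenpl, Cenph, Cenpk and Cenpo were near background on both arrays. All of these splits are descriptions of 1 pair of arrays.

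The other genes of the division cycle, in lists that hold no member, gave medians below the 0.29 of the members outside the other kinesins, but 3 of these lists lay above the 0.21 of the whole module, namely APC/C, cytokinesis and replication genes. Further kinetochore and checkpoint genes, such as the MIS12, SKA and RZZ complexes, had a median of 0.20 over 17 genes, 11 of them higher. That median did not hold over the 11 genes of this list above background on both arrays. There it was 0.01, with 6 higher and 5 lower. None of the 17 genes was 1.5-fold different. Kntc1 of the RZZ complex, at 0.53, and Spag5, at 0.41, differed most above background, and Ska2 read lowest, at -0.30. APC/C subunits and partners had a median of 0.24 over 18 genes, 15 of them higher. Anapc4 (0.74) and Anapc15 (0.71) led with wild-type values near background, and Anapc11, the RING subunit, followed at 0.57. Cohesin, condensin and separase genes had a median of 0.20 over 21 genes, 15 of them higher. The condensin genes Smc2 (0.94), Ncapg (0.76) and Smc4 (0.61) and the cohesin gene Stag2 (0.61) passed 1.5-fold, of which Smc2 and Ncapg were near background on the wild-type array. Cytokinesis and spindle genes had a median of 0.22 over 13 genes, 9 of them higher, led by Cep55 of abscission (0.69). Over the 7 genes of this list above background on both arrays the median was 0.13, with 4 higher. Cep55 was near background on the wild-type array, and its higher reading stood under the larger of the control levels.

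DNA replication genes had a median of 0.22 over 29 genes, 25 of them higher. Gins1, at 0.99, was near background on the wild-type array, and Ung, at -1.04, on the array labelled knockout. Rfc5, at 0.93, was above background on both. The 21 factors that control transcription of cell cycle genes had a median of 0.14, with 14 higher. Set against the median of their level neighbours, 9 lay above and 12 below. All 3 NF-Y subunits read higher, Nfyb by 0.66, Nfya by 0.45 and Nfyc by 0.42. Of their 500 level neighbours 19 lay above Nfyb, 93 above Nfya and 83 above Nfyc. Rb1, the retinoblastoma protein gene, read 6.18 on the array labelled knockout and 6.94 on the wild-type array (-0.76), with 1 of 500 neighbours lower. MuvB genes differed less, with Lin37 at 0.19, Lin54 at 0.14, Rbbp4 at 0.08, Lin9 at -0.01 and Lin52 at -0.20. E2F genes went both ways. E2f6 (-0.43, near background on the array labelled knockout), E2f2 (-0.35), E2f7 (-0.30) and E2f1 (-0.28) read lower. E2f3 (0.35), E2f8 (0.29) and E2f4 (0.14) read higher. Of the other cyclins, kinases and inhibitors, 11 of 19 read higher, with a median of 0.11. The D-type cyclin Ccnd3 was at -0.50 with 8 of 500 neighbours lower, and the kinase inhibitors Cdkn1a and Cdkn1b were at -0.09 and -0.08.

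Markers of T cells, B cells and eosinophils differed far more between the arrays than any mitotic group. T cell markers read lower in 10 of 11 genes (median -1.63) and B cell markers in 8 of 8 (median -1.09). Their summed linear level was 295 on the array labelled knockout and 810 on the wild-type array for T cells, and 655 and 1244 for B cells. Eosinophil markers had sums of 681 and 1982, with 5 of 6 genes lower, and macrophage markers 529 and 296, with 9 of 9 higher. Neutrophil granule genes stood at 12601 and 11227 with 4 of 10 genes higher. The 4 were the primary granule genes Ctsg (0.72), Prtn3 (0.55), Elane (0.34) and Mpo (0.25), and the 6 lower were Ltf (-0.55), Mmp9 (-0.50), Camp (-0.41), S100a9 (-0.30), Ngp (-0.21) and S100a8 (-0.02). Erythroid genes stood at 437 and 399 with 3 of 6 higher. Among defining markers Cd3d, Cd8a, Pax5 and Vpreb1 were near background on the array labelled knockout. Others were not: 4 of the 12 T cell markers found and 5 of the 9 B cell markers found lay above background on both arrays. Cd3e read 5.69 and Cd79a 7.56 on the array labelled knockout. The sorted samples thus differed in the RNA of several lineages, and the part of these cells in the mitotic differences was not tested.

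**Figure D5:**
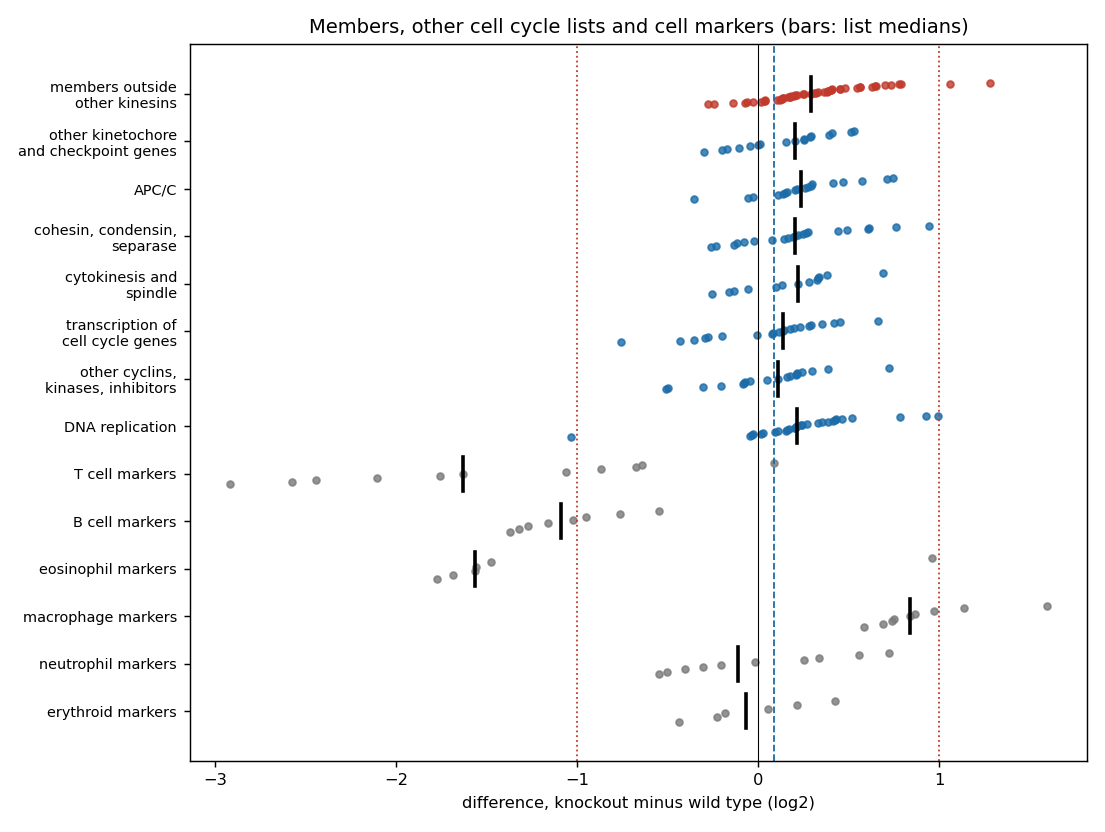
Difference between the arrays (log2, x axis) for each gene past the level filter in the members outside the other kinesins (red), other cell cycle lists (blue) and markers of other cells (grey); black bars are list medians, dotted lines mark 2-fold and the dashed line the median of all genes, 0.08. The member median of 0.29 lies right of those of the other cell cycle lists, between 0.11 and 0.24, while that of the whole module, 0.21, lies among them, and the T cell, B cell and eosinophil medians lie under -1.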

How the data were processed

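RNA of sorted ILC progenitors was measured on 2 Affymetrix arrays, 1 per genotype. The deposited log2 values, 1 per probe set, were made by the authors with Affymetrix Power Tools and RMA, per the submitters' processing notes; versions and a genome build are not stated there. RMA brings the distributions of the arrays together, so a change in total RNA per cell would not be seen.

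Of 29129 probe sets, 19572 have a gene symbol in the platform annotation, for 19505 genes. A gene was represented by its probe set of highest mean, and 5222 negative control probe sets set the background level. Genes entered at a mean of at least 2.88. Differences are values of the array labelled knockout minus those of the wild-type array, with no test, since n = 1 per genotype. The number of arrays limits the precision. Where 1 array was near background, a fold is a lower limit against 4.80, the larger of the control levels.

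The members, gene lists and motifs were chosen with earlier results of these data known. Values were named for members past 2-fold, for the 12 highest and 12 lowest members past the filter, and for all members of the kinase, checkpoint, outer kinetochore and spindle groups; in other lists the largest differences were named, and further examples were chosen after their values were seen. Alternatives were other level filters, centring, loess (span 0.3), quantile normalization, the mean of probe sets, values raised to 4.80, a 1.5-fold threshold and leaving out the other kinesins. The code was tested on simulated data. Gene identifiers of all 76 members were found in the RefSeq gene table of GRCm38.p6, from which promoter sequences came. Computations used Python 3.11.15, numpy 2.4.6, pandas 2.3.3 and statsmodels 0.14.6.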

Additional observations from a re-analysis of the deposited data

How the results depend on the processing

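With 1 array per genotype every value rests on that pair of arrays. The members' median difference, 0.21 as reported, was 0.12 after centring, 0.13 after the loess correction, 0.15 after quantile normalization and 0.079 once low values were raised to the negative control level, where the median of all genes was 0.00, 0.00, 0.01 and 0.00. It stayed positive with no level filter (0.19, all genes 0.01), with both stricter filters (0.27 over 37 members, all genes 0.14) and without the other kinesins (0.29, all genes 0.08). The count of members at least 2-fold higher, 3 as reported, was 0 with the level filter at the 75th percentile, 0 with that at the negative control level and 0 with low values raised to it. It was 10 at 1.5-fold, where the count of lower members was 1. With raised values 26 of the 64 members tied at 0, 35 read higher and 3 lower, and 7 of the 42 members named by rule moved by more than their local spread. Under loess and quantile normalization none of the 42 did. Each member has 1 probe set and centring shifts all genes alike, so those settings do not bear on stability. No paired analysis was possible because each genotype has 1 array. Signal near background limits the reading of 35 members that lay under the control level on both arrays.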
